A study of Mus musculus with 2 samples.

Results

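Cytoplasmic ribosomal protein genes were described in droplet single-cell RNA sequencing data of the mouse aorta-gonads-mesonephros region (AGM), the embryonic site in which the first hematopoietic stem cells emerge. Members were chosen by symbol, as Rpl or Rps followed by digits and an optional letter, together with Rplp0, Rplp1, Rplp2 and Rpsa, which gave 75 of the 31053 genes in the tables. Of these, 29 encode proteins of the small ribosomal subunit and 46 encode proteins of the large subunit. The rule left out genes such as Rps4x, Rps3a1 and Fau, whose products also belong to the ribosome but whose symbols have another form, the paralogs that end in l, such as Rps27l and Rpl22l1, and the S6 kinases.

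Both libraries were made from whole AGM of embryonic day (E) 11 with the 10x Chromium 3′ chemistry, with loading aimed at 7000 cells. One came from PDGFRB+/+ (WT) embryos and the other from PDGFRB-/- (KO) embryos, which lack the platelet-derived growth factor receptor β in all tissues. With 1 library per genotype there was no replicate check, and no test between genotypes was made. Genotype, embryo, dissection and library preparation cannot be told apart, and the intervals below, at 95%, cover counting error only. A unique molecular identifier (UMI) marks 1 captured mRNA molecule. Values were summed over the barcodes with at least 2000 UMIs, 9207 in WT and 9157 in KO, with 157247538 and 150475279 UMIs and a median of 12505 and 11666 UMIs per barcode. Levels are given as UMI counts scaled to the library total (CPM), and ratios as log2 of KO over WT.

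Each ribosome holds 1 copy of most ribosomal proteins, so that cells make them in balanced amounts, and their mRNAs are among the most abundant of growing cells. Most of these mRNAs start with a C followed by a run of C and T letters, the 5′ terminal oligopyrimidine (TOP) motif, through which mTOR signalling controls their translation as a group. Loss of 1 copy of one of several of these genes causes Diamond-Blackfan anemia in humans, in which the erythroid lineage is the most affected. In mice, loss of 1 copy of Rpl38 gives skeletal patterning defects.

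Start regions are shown for most of the genes on which the comparison of genotypes turned and for 4 other members, since the TOP motif lies there. RefSeq promoter entries on GRCm38.p6 were found for 55 of the 75 members, but not for Rps29 and Rpl36, which are therefore missing here. Windows run from 10 bases before to 20 bases after the annotated start, 5′ to 3′ on the strand of the transcript. Capitals mark the first run of at least 5 C and T letters that begins with C, anywhere in the window. A marked run need not be a TOP motif. Those of Rpl6, Rps27 and Rps18 end before the annotated start. The windows of Rps27 and Rps18 hold a later run of this kind, not marked, that spans the annotated start. The first set holds members that were lower in KO in every cell class (values below).
Rpl38: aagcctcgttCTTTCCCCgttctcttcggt
Rpl35: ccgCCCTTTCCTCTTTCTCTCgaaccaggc
Rps27: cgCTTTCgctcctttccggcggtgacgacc
Rps21: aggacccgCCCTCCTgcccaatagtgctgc
Rpl39: gctccgCCTCTagcgacttcttctaatcgc
Rpl37: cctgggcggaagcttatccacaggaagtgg
Rpl6: aCCTCCCgtcattgcttatagaccggaagc
Rpl37a: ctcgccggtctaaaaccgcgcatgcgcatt
The second set holds members that were higher in KO over all barcodes.
Rps18: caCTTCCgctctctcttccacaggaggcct
Rpl28: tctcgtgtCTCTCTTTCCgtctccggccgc
Rps6: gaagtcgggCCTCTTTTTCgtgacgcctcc
Rpl41: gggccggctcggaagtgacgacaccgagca

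The window of Rpl38 lies at chr11:114668570-114668599 on the plus strand, that of Rpl35 at chr2:39005112-39005141 on the minus strand and that of Rps18 at chr17:33955646-33955675 on the minus strand. Such a run was present in 6 of 9 windows of 8 genes of the first kind, in 34 of 56 windows of the 47 other members with an entry, and in 35.8% of all 32851 windows. Annotated starts need not be the starts used in these cells, and the windows of Rpl37, Rpl37a and Rpl41 and that of another Rps21 entry, which starts further downstream and is not printed, held no such run. By the GENCODE gene positions, the windows of Rpl37 and Rpl37a end before the first base of the gene and so do not cover that start. The letters CGGAAG, read on both strands, are the core of the site bound by ETS factors. Within the 300 bases of each promoter entry they occurred in 9 of 9 entries of the first kind, from 8 genes. They occurred in 32 of 56 entries of other members and in 16.9% of all entries. The entries of Rps21 overlap, so that a match can be counted in both. On the other strand CGGAAG reads CTTCCG, whose first letters can overlap a run of C and T. TATAAA, also on both strands, occurred in 1 of 9, 5 of 56 and 13.6% of entries. These are matches of letters, and binding was not measured.

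Ribosomal protein mRNAs made up a large part of the captured molecules in both libraries. Their UMIs were 21.6% of all UMIs in WT (interval 21.56 to 21.57) and 22.5% in KO (22.48 to 22.49), a log2 ratio of 0.060 (0.060 to 0.061). Small subunit genes held 9.52% of UMIs in WT and 9.997% in KO, and large subunit genes 12.04% and 12.49%. Per barcode, the median share was 22.5% in WT and 23.3% in KO, and the range from the 5th to the 95th percentile was 10.3 to 32.8% and 10.9 to 32.9%. The spread between barcodes of the same library was therefore far wider than the gap between the libraries. All 75 members had UMIs in both libraries, and the median barcode held UMIs of all 75. Rps29 and Rpl13 were among the members with the most UMIs over both libraries, and Rpl13a, Rpl27 and Rpl31 the fewest. Even Rpl13a had 46995 UMIs in WT and 49653 in KO, so that depth limited no comparison over all barcodes. Free RNA, the content of barcodes that held 100 UMIs or fewer, had nearly the same share, 21.1% in WT and 21.3% in KO.

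The total hardly differed between genotypes, but its composition did. Among the members, 62 were higher and 13 lower in KO, with a median log2 ratio of 0.24. Of all 15089 genes with at least 100 UMIs, 9075 were higher and 6014 lower, with a median of 0.060. Of the other 335 genes with as many UMIs as the least abundant member, 196 were higher and 139 lower, with a median of 0.036. At least 1.5-fold lower in KO were 7 of 75 members (9.33%), against a background of 5.02% of the 15089 genes and 5.37% of the 335 abundant genes. None of the members was 1.5-fold higher, where 5.65% of the 15089 genes and 0.597% of the 335 abundant genes were. At least 25% higher in KO were 16 of 75 members (21.3%), against 14.6% of the 15089 genes and 5.37% of the 335 abundant genes. Members thus spread into a small set that was much lower in KO and a majority that was a little higher.

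**Figure D1:**
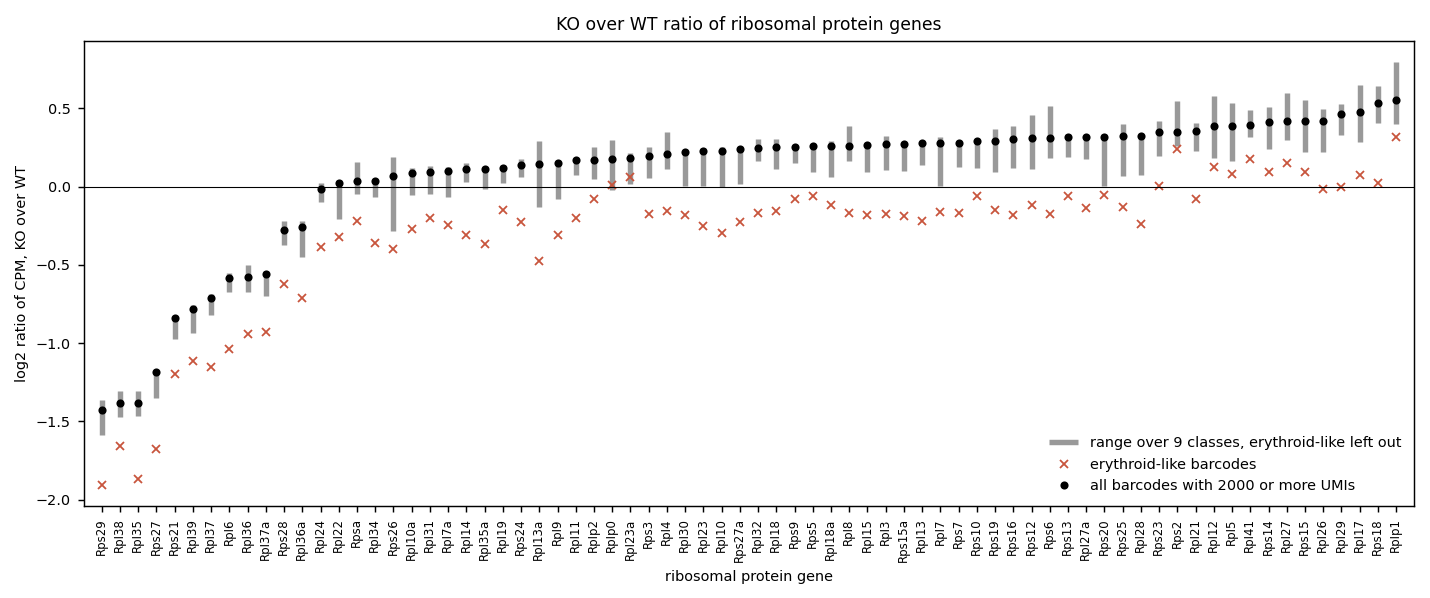
Log2 ratio of CPM of KO over WT (vertical axis) for ribosomal protein genes, in order of the ratio. Points are all barcodes, bars are the range over 9 marker-gated classes and crosses are erythroid-like barcodes. The 10 genes from Rps29 to Rpl37a lie between -1.42 and -0.56, and Rps28 and Rpl36a lie between them and the rest.

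The set that was lower consisted of 10 genes: Rps29, Rps27 and Rps21 of the small subunit, and Rpl38, Rpl35, Rpl39, Rpl37, Rpl6, Rpl36 and Rpl37a of the large subunit. All 10 were at least 20% lower in KO in each of 10 cell classes defined below. This holds for 13.3% of members, against 4.78% of the 335 abundant genes, or 16 of them. None was at least 25% higher in every class, where the background was 0.299%. The 16 other genes included short subunits of the ATP synthase (Atp5e and Atp5k) and of the respiratory chain (Uqcr11 and Cox7c). Subunits of the spliceosome (Snrpg and Snrpf) and Xist were also among them. These names were picked after their values were seen.

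Rps29, a small zinc-binding protein of the small subunit, lies at chr12:69157722-69159186 on the minus strand (GRCm38). It had 8552 CPM in WT (8537 to 8566) and 3186 CPM in KO (3177 to 3195), a log2 ratio of -1.42 (-1.43 to -1.42). In WT it had the most UMIs of all members, whereas in KO it did not. The ratio within classes ran from -1.90 in erythroid-like barcodes to -1.36.

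Rpl38, the large subunit protein linked to skeletal patterning, lies at chr11:114668524-114672331 on the plus strand. Its level was 3976 CPM in WT and 1522 CPM in KO, with a log2 ratio of -1.39 (-1.39 to -1.38) and a range of -1.66 to -1.31 over classes. Rpl35, a protein near the exit of the peptide tunnel, lies at chr2:39001580-39005624 on the minus strand. It had 2293 CPM in WT and 878 CPM in KO, a log2 ratio of -1.39 (-1.39 to -1.38) with -1.87 to -1.31 over classes. Both were 2.61-fold lower in KO.

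Rps27, a zinc finger protein of the small subunit, had 4497 CPM in WT and 1977 CPM in KO (log2 ratio -1.19, -1.67 to -1.19 over classes). Rps21, also of the small subunit, had 4550 and 2540 CPM (-0.84, -1.20 to -0.82). Rpl39, which lines the peptide exit tunnel, had 5228 and 3037 CPM (-0.78, -1.12 to -0.76). The set was chosen by its class values, so no class could have a ratio near 0 for any of these genes.

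Rpl37, a zinc-binding large subunit protein, had 4750 CPM in WT and 2907 CPM in KO (log2 ratio -0.71, -1.15 to -0.69 over classes). The levels of Rpl6 were 4209 and 2811 CPM (-0.58, -1.04 to -0.55). Rpl36 had 3410 and 2284 CPM (-0.58, -0.94 to -0.50), and Rpl37a 4942 and 3349 CPM (-0.56, -0.93 to -0.54). Each lower end is the erythroid-like class, in which the median of all genes was also lower (-0.24).

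Next in order were Rps28, at 2340 and 1929 CPM (log2 ratio -0.28), and Rpl36a, at 1813 and 1515 CPM (-0.26). Both were lower in KO in all 10 classes, with ranges of -0.62 to -0.22 and -0.71 to -0.22, and so lie just outside the set. The other 63 members lay between -0.016 and 0.56. At the upper end were Rplp1 of the ribosomal stalk (2623 CPM in WT and 3856 CPM in KO, log2 ratio 0.56), Rps18 of the head of the small subunit (2633 and 3804 CPM, 0.53) and Rpl17 (1908 and 2659 CPM, 0.48). Rpl29 (1438 and 1987 CPM, 0.47) and Rpl26 (2389 and 3200 CPM, 0.42) followed. Rplp1, Rps18 and Rpl17 were higher in KO in all 10 classes, with lowest values of 0.32, 0.024 and 0.071 in erythroid-like barcodes, while Rpl29 and Rpl26 were at -0.0053 and -0.013 there.

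The 10 genes took 21.5% of all ribosomal protein UMIs in WT but 10.9% in KO. As a sum their log2 ratio was -0.92, and that of the other 65 members was 0.24, so that the total share of the ribosomal proteins differed little. Since these genes were chosen by this contrast, the values only describe the size of the gap. It was visible barcode by barcode. The median barcode gave these genes 21.6% of its ribosomal protein UMIs in WT and 10.9% in KO. The range from the 1st to the 99th percentile was 16.5 to 25.4% in WT and 8.56 to 13.7% in KO, and these ranges did not overlap. Only 3 KO barcodes, or 0.0328%, reached the 5th percentile of WT, 19.2%.

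**Figure D2:**
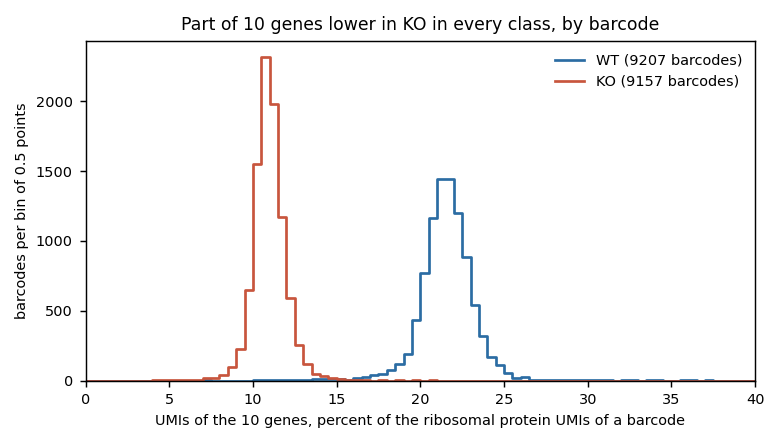
Number of barcodes (vertical axis, bins of 0.5 percentage points) by the percent of their ribosomal protein UMIs that lie in the 10 genes (horizontal axis), for WT and KO. The KO peak, with a median of 10.9%, and the WT peak, with a median of 21.6%, are nearly apart.

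The gap is given here by depth and by class. Its presence in every class follows from how the 10 genes were chosen. From barcodes with 2000 to 4000 UMIs up to those with at least 32000 UMIs, the 10 genes took between 21.3 and 22.1% of ribosomal protein UMIs in WT and between 10.8 and 11.2% in KO. Over the 10 classes the range was 20.6 to 22.0% in WT and 9.97 to 11.3% in KO. In free RNA the genes took 18.8% in WT and 13.2% in KO, a smaller gap in the same direction. For Rps29, free RNA held 6753 CPM in WT and 4282 CPM in KO.

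Most of the genes in this set have short coding sequences. Of the 9 members with a coding length under 300 bases, 7 were in the set: Rps29 (168 bases), Rpl38 (210), Rps27 (252), Rps21 (249), Rpl39 (153), Rpl37 (291) and Rpl37a (276). The other 2 short members were Rps28 (207 bases) and Rpl41, the shortest at 75 bases. Rps28 was lower by less than 20% over all barcodes. It missed the every-class rule only in macrophage-like (log2 ratio -0.23) and skeletal muscle-like barcodes (-0.22). Rpl41 was higher in KO at 4455 and 5859 CPM (log2 ratio 0.40). Between 300 and 450 bases 2 of 27 members belonged to the set, between 450 and 600 bases 0 of 19, and from 600 bases 1 of 20, which was Rpl6 (888 bases). Among the other abundant genes, at least 20% lower over all barcodes were 11 of 44 under 300 bases (25%) and 12 of 66 from 300 to 450 bases (18.2%). From 450 to 600 bases 2 of 35 (5.71%) were, and above that 7 of 183 (3.83%). Lower by as much in every class, the rule behind the set, were 10, 3, 0 and 1 of these genes in the same order. Lower values of genes under 300 bases were therefore also present outside the ribosomal proteins. Coding length is not the length of the mRNA. Annotated transcripts of the 10 genes ran from 345 bases (Rpl38 and Rps27) to 1270 bases (Rpl6). That of Rps28, outside the set, had 271 bases. Whether fragment length or another step of library preparation took part in the gap was not tested. Ribosomal protein genes have many near-identical pseudogene copies, and reads that map to several places are lost in this kind of counting, so that levels of single members are uncertain in both libraries.

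**Figure D3:**
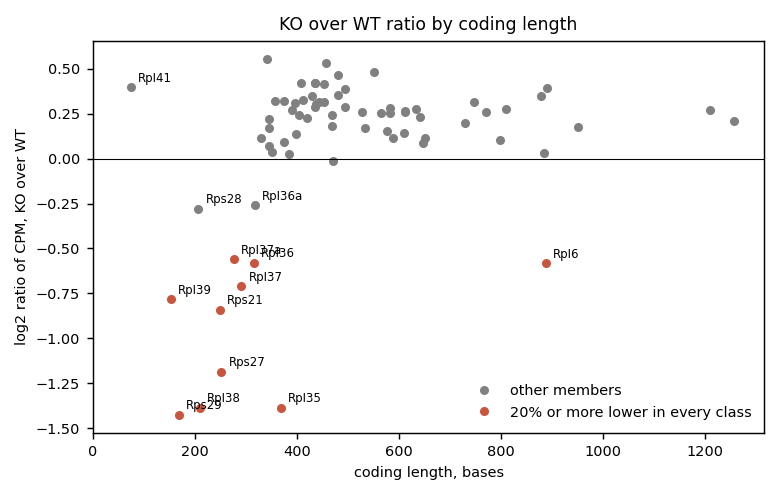
Log2 ratio of CPM of KO over WT (vertical axis) against coding length in bases (horizontal axis) for ribosomal protein genes. Of the 10 genes that were lower in every class, 7 lie under 300 bases, Rpl6 lies at 888 bases, and Rpl41, the shortest member, lies at 0.40.

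Several genes that the symbol rule left out were examined as well, and not all of them are reported here. Rps4x (log2 ratio 0.19), Rps3a1 (0.18) and Fau, which encodes a fusion of a ubiquitin-like protein with the small subunit protein eS30 (0.36), were higher in KO, as most members were. Rps27a, a member that encodes a ubiquitin fusion, had 4432 CPM in WT and 5239 CPM in KO (0.24). Among the paralogs, Rps27l (0.031), Rpl22l1 (0.18), Rpl7l1 (0.15) and Rpl36al (0.27) had small ratios. Rpl39l, Rpl3l and Rpl10l, which are best known from testis and striated muscle, had only 129, 5 and 9 UMIs in WT and 111, 1 and 18 in KO. Rps4l was not among the genes of the tables.

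Of the members, 3 are X-linked: Rpl39 (log2 ratio -0.78), Rpl36a (-0.26) and Rpl10 (0.23). Xist, the RNA of the inactive X chromosome, had 820 CPM in the WT library and 0.419 CPM in the KO library, so that the sex of the embryos and the genotype cannot be told apart. Pdgfrb itself had 43.4 CPM in the WT library and 7.18 CPM in the KO library, and where in the gene the remaining tags lie was not examined. Of the kept barcodes, 24 occurred in both libraries, where 12.4 were computed for independent sets.

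Other genes of translation were compared to place the members. Of 16 translation genes with TOP mRNAs, 13 were higher and 3 lower in KO with a median log2 ratio of 0.13, and none passed 1.5-fold. Eef1a1, the elongation factor that brings tRNA to the ribosome, had 6175 CPM in WT and 6060 CPM in KO (-0.027), and Tpt1, a TOP mRNA, had 4092 and 5332 CPM (0.38). Of 24 ribosome biogenesis genes, 18 were higher and 6 lower with a median of 0.048. The nucleolar genes Npm1 (0.18) and Ncl (0.035) were the most abundant of these. Of 77 mitochondrial ribosomal protein genes, 49 were higher and 28 lower with a median of 0.054. Of all 15089 genes, 9075 were higher and 6014 lower, so that more higher than lower genes was not particular to these lists. Mrpl52 (-0.29) and Mrps33 (-0.019) had the most UMIs. No biogenesis or mitochondrial gene passed 1.5-fold either, a limit that 7 of the set of 10 genes passed. Over all barcodes, 1 mitochondrial ribosomal protein gene was at least 20% lower in KO (log2 ratio -0.39), and no gene of the other lists was. The set was chosen by its values in every class, and such values are not given here for these lists.

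Barcodes were next assigned to classes by the number of marker genes detected, with at least 3 markers of a class and at least 2 more than of the next class. Of 12 classes, 10 held at least 50 barcodes in both libraries, from 92 neuron-like barcodes in WT and 80 coelomic epithelium-like barcodes in KO to 2108 sclerotome-like barcodes in KO. In no class did markers of another class stand among the top 10 genes, which the required lead over other classes makes likely. Skeletal muscle-like barcodes of WT had none of their own markers there but Myh3, Tnnc2, Neb and Ttn, genes of the muscle sarcomere. No class was given to 48.1% of barcodes in WT and 49.0% in KO. Doublets were not removed.

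The ribosomal protein share was highest in skeletal muscle-like barcodes, with 25.5% of UMIs in WT and 26.8% in KO. It was lowest in erythroid-like barcodes, with 13.6% in WT and 11.1% in KO. Of the rest, neuron-like barcodes (19.6 and 18.8%) and smooth muscle-like barcodes (20.8 and 21.5%) were at the lower end. Macrophage-like (22.1 and 22.6%), visceral mesenchyme-like (22.4 and 22.3%), Schwann precursor-like (22.9 and 22.6%), coelomic epithelium-like (22.9 and 24.1%), sclerotome-like (23.0 and 23.2%) and endothelial-like barcodes (23.6 and 23.6%) lay close together. The share of single barcodes ran from 20.7% at the lower to 26.0% at the upper quartile among sclerotome-like barcodes of WT, wider than the gaps between these 6 classes. The quartiles were 23.6 and 29.1% among skeletal muscle-like and 10.7 and 15.0% among erythroid-like barcodes of WT.

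The low erythroid share came with globin mRNA, which took 55.4% of the UMIs of erythroid-like barcodes in WT and 62.9% in KO, and at most 0.361% in the other classes. Of the UMIs outside globin and mitochondrial genes, ribosomal proteins made up 31.8% in WT and 30.8% in KO of this class, the highest value of the 10 classes. On this scale skeletal muscle-like barcodes had 27.0 and 28.4%, and neuron-like barcodes were lowest with 21.1 and 20.1%. Thus the order of the erythroid-like class turned from lowest to highest with the denominator.

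**Figure D4:**
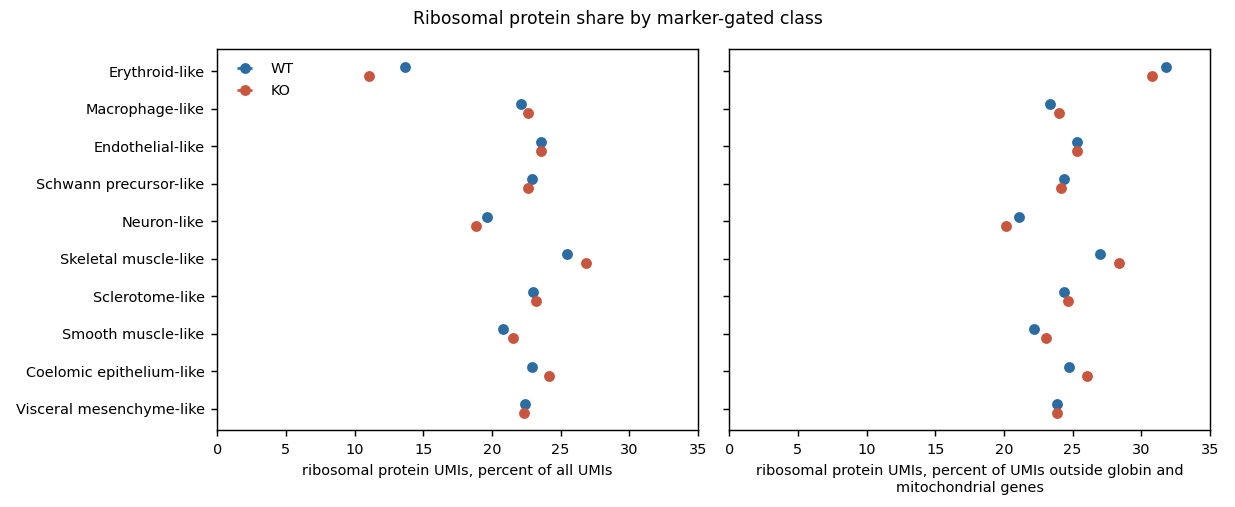
Ribosomal protein UMIs in percent of all UMIs (left) and of UMIs outside globin and mitochondrial genes (right), for 10 marker-gated classes in WT and KO. Points are sums over barcodes, with 95% binomial intervals that are narrower than the points. Erythroid-like barcodes are lowest on the left, at 13.6 and 11.1%, and highest on the right, at 31.8 and 30.8%.

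Between genotypes the share differed little within classes other than the erythroid-like class. The log2 ratio was above 0 in 6 classes, from 0.00027 in endothelial-like barcodes (-0.0037 to 0.0042) to 0.074 in coelomic epithelium-like and 0.075 in skeletal muscle-like barcodes. It was below 0 in 4 classes, with -0.30 (-0.31 to -0.30) in erythroid-like barcodes, where globin was higher in KO, and -0.047 once globin and mitochondrial genes were left out. Neuron-like barcodes were at -0.061, and their median depth differed as well, at 23412 UMIs in WT and 9456 UMIs in KO. Erythroid-like barcodes were 745 in WT and 220 in KO, and globin took 5.05% of all UMIs in WT and 2.08% in KO. Since classes differ in number, the ratio over all barcodes also carries the cell mix, and with both libraries weighted to the same class mix it was 0.011.

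Classes also differed in which ribosomal protein mRNAs they held. To compare this, each member was expressed as its part of the ribosomal protein UMIs, in a class against all other barcodes of the same library. Of 750 pairs of a member and a class, 9 (1.20%) were at least 25% higher and 14 (1.87%) at least 20% lower in both libraries. Among the 335 other abundant genes, scaled alike, 7.88% of 3350 pairs were higher and 24.5% were lower. These shares cannot be set directly against each other, since the scale centres the members on their own total in each class but leaves differences of that total in the values of the other genes. The direction was the same in both libraries in 619 of the 750 pairs (82.5%). The matching share of other genes is not given here, so this count describes the members alone and is not read as particular to them. Over the 75 members, which share libraries and the same total and are not independent, the deviations of WT and KO had a Pearson's r between 0.64 in visceral mesenchyme-like and 0.97 in erythroid-like barcodes.

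**Figure D5:**
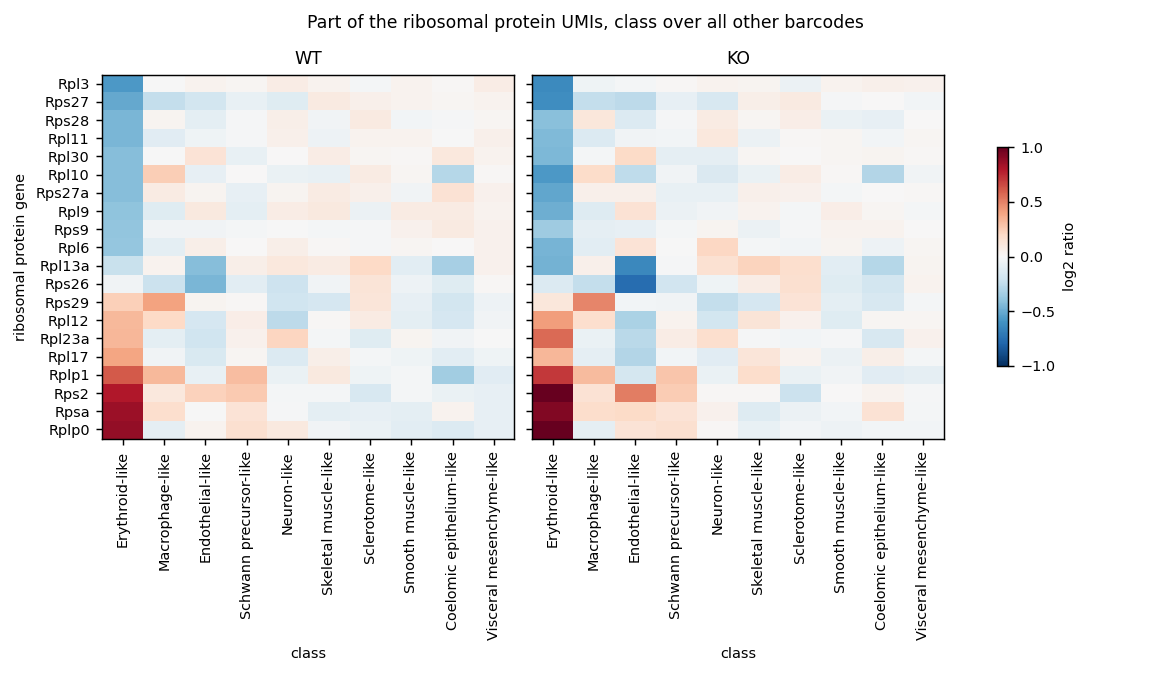
Log2 ratio of a member's part of the ribosomal protein UMIs in a class over that in all other barcodes of the library (color), for 20 members with a large deviation in both libraries and 10 classes, in WT and KO. Erythroid-like barcodes stand apart, with Rplp0 at 0.88 in WT and 1.04 in KO and Rpl3 at -0.57 and -0.63.

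Erythroid-like barcodes accounted for 19 of the 23 pairs that passed these limits. How large a part this class has among the pairs of other abundant genes is not given here. Rplp0, the base of the ribosomal stalk, took 2.91% of ribosomal protein UMIs in erythroid-like barcodes of WT and 1.58% in all others, and 3.62 and 1.76% in KO. The log2 ratio was 0.88 in WT and 1.04 in KO. Rpsa, a small subunit protein also known as the laminin receptor, took 3.34 and 1.85% in WT and 3.54 and 1.87% in KO (0.85 and 0.92). Rps2, at the entry of the mRNA channel, took 2.72 and 1.56% in WT and 3.96 and 1.95% in KO (0.80 and 1.02). The stalk protein Rplp1 was at 0.61 and 0.70, while Rpl12, Rpl23a and Rpl17 were between 0.33 and 0.57. Members of both subunits were among these 7 genes.

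Lower in erythroid-like barcodes were 12 members, among them Rpl3, Rps27, Rpl11, Rps28, Rpl10, Rps27a, Rpl30, Rpl9, Rps9, Rpl6 and Rpl18. Rpl3, near the peptidyl transferase center, took 0.739% of ribosomal protein UMIs in erythroid-like and 1.10% in other barcodes of WT, and 0.808 and 1.253% in KO (-0.57 and -0.63). Rps27 was at -0.51 and -0.62. Rps27 and Rpl6 were thus lower in erythroid-like barcodes in addition to being lower in KO in every class.

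These differences grew with the globin share of the barcode, a measure that holds no ribosomal protein gene. In WT, Rplp0 took 2.08% of ribosomal protein UMIs in 72 erythroid-like barcodes with less than 40% globin, 2.56% in 27 barcodes with 40 to 50%, 2.88% in 188 barcodes with 50 to 60%, 3.28% in 368 barcodes with 60 to 70% and 4.10% in 90 barcodes above 70%. Rps2 went through 1.96, 2.31, 2.72, 3.08 and 3.70% in the same order, and Rpsa through 2.39, 3.12, 3.42, 3.73 and 4.30%. Rpl3 went the other way, through 1.00, 0.831, 0.706, 0.623 and 0.525%, and Rps27 from 1.83 to 1.18%. In KO the bins with at least 20 barcodes were 60 to 70% and above 70% globin, with 56 and 129 barcodes. Rplp0 took 3.69 and 4.92% there, Rps2 3.99 and 5.16%, and Rpl3 0.692 and 0.4999%. Within both of these bins Rplp0, Rps2 and Rplp1 took a larger part in KO than in WT. The 10 genes above take a smaller part in KO, so that the sum of the other members is larger there, though not each member. Outside globin and mitochondrial genes, the ribosomal protein share of WT was 26.1% below 40% globin and between 29.4 and 35.2% in the other bins. In the bin of 60 to 70% globin it was 34.2% in WT and 34.0% in KO, and above 70% globin 32.9 and 33.3%. Median depth moved along, from 30914 UMIs in the first to 14736 UMIs in the last bin of WT, and its part in the trend was not tested.

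Outside the erythroid-like class 4 pairs passed these limits in both libraries. In macrophage-like barcodes, Rps29 took 5.19% of ribosomal protein UMIs in WT and 3.93% in other barcodes, and 1.97 and 1.41% in KO, with log2 ratios of 0.40 and 0.49. Its level was 11463 CPM in WT and 4459 CPM in KO in this class, so that the higher part of macrophage-like barcodes and the lower level of KO were both present. Rps12, of the small subunit, was at 0.32 and 0.33 in macrophage-like barcodes. In endothelial-like barcodes, Rps26, at the exit of the mRNA channel, took 1.12% in WT and 1.53% in other barcodes, and 0.917 and 1.55% in KO (-0.46 and -0.76). Rpl13a was at -0.42 and -0.65 there. In the other 7 classes, which were the Schwann precursor-like, neuron-like, skeletal muscle-like, sclerotome-like, smooth muscle-like, coelomic epithelium-like and visceral mesenchyme-like barcodes, no member passed them in both libraries.

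Over the 10 classes of WT, the widest ranges of CPM included those of Rps27 (2.79-fold), Rpl3 (2.79-fold), Rps27a (2.61-fold) and Rpl9 (2.61-fold). The narrowest were those of Rpsa (1.29-fold), Rplp0 (1.31-fold) and Rps2 (1.42-fold). As a part of the ribosomal protein UMIs the order turned, with Rplp0 (1.93-fold), Rplp1 (1.88-fold), Rps2 (1.85-fold) and Rpsa (1.85-fold) the widest. Among the narrowest on this scale were Rps16 (1.10-fold) and Rpl26 (1.10-fold). The flat CPM of Rpsa, Rplp0 and Rps2 thus went with a ribosomal protein share that was lowest in the erythroid-like class.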

How the data were processed

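Per the labels, the authors aligned the reads with Cell Ranger 3.1.0 to mm10 (GRCm38) and deposited raw UMI counts for every barcode, unfiltered and not normalized. How many embryos entered a library is not given in the sources used here. Barcodes with at least 2000 UMIs were kept and counts were summed per library or class, so that values carry the depth of 87.5% of all UMIs in WT and 86.2% in KO. Shares have exact binomial (Clopper-Pearson) and CPM exact Poisson intervals, and ratios an interval from the exact binomial interval of the KO part. No test between genotypes was made, and "past the fold" is not a test. The scripts were tested on simulated data. Named are the extremes of the ratio, class range and UMIs, members at least 20% lower or 25% higher in every class, the most abundant genes of each list and the genes left out by the rule, and the genes of the erythroid, macrophage and endothelial classes and their globin bins were added after their values were seen. Some genes are counted but not reported by name here. Members and lists were chosen with earlier results of these data known. Alternatives are given in the closing section. Gene positions, coding lengths and transcript lengths come from GENCODE M21. Python 3.11.15, numpy 2.4.6, scipy 1.17.1 and pandas 2.3.3 were used.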

Additional observations from a re-analysis of the deposited data

Results flagged for a closer look

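In 4 classes the ribosomal protein share was lower in KO although it was higher over all barcodes (log2 ratio 0.060). The log2 ratio was -0.30 in erythroid-like, -0.061 in neuron-like, -0.020 in Schwann precursor-like and -0.0063 in visceral mesenchyme-like barcodes. The difference from the other classes was not tested, since there was 1 library per genotype. In erythroid-like barcodes globin took 55.4% of UMIs in WT and 62.9% in KO, and the ratio outside globin and mitochondrial genes was -0.047.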

How the results depend on the processing

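The share in WT, the share in KO and their log2 ratio were 21.4%, 22.4% and 0.064 with at least 5000 UMIs per barcode, and 21.7%, 22.7% and 0.064 with at most 10% mitochondrial UMIs. They were 22.4%, 23.1% and 0.049 as means over barcodes, 24.2%, 24.5% and 0.019 without globin and mitochondrial genes in the denominator, and 22.6%, 23.6% and 0.064 with the genes of the ribosome that the symbol rule leaves out added. Weighted to the same class mix they were 21.9%, 22.1% and 0.011, and to the same depth mix 21.6%, 22.4% and 0.056. Without erythroid-like barcodes, an alternative chosen after seeing the data, they were 22.3%, 22.9% and 0.034. Without KO barcodes that held Pdgfrb UMIs, KO was at 22.7% and the ratio at 0.072. The ratio of the share thus kept its sign but moved by more than 1.5 times with the denominator, the class mix and the erythroid-like barcodes. The median member ratio was 0.25 without Pdgfrb barcodes, 0.23 over barcode means and 0.23 with those genes added, 0.20 with the other denominator and without erythroid-like barcodes, and 0.18 with the same class mix. Members at least 1.5-fold higher were 1 in place of 0 without Pdgfrb barcodes. With all barcodes kept, 16 were at least 25% higher. Members at least 1.5-fold lower were 10 in place of 7 with the other denominator and when ratios were centred on the median of all genes. The gap between the classes with the highest and lowest share in WT was 11.8 points, and 10.7 points with the other denominator, and the median class range of a member was 2.0-fold and 1.48-fold. The ratio in endothelial-like barcodes turned to -0.013 with at most 10% mitochondrial UMIs and to -0.0028 with the other denominator, and that in visceral mesenchyme-like barcodes to 0.0015 and 0.0020. Their sign is therefore not settled. The 10 genes lower in every class stayed below the 65 others under all 9 alternatives tried. Each of the 10 was at -0.55 or lower and each of the 65 at -0.345 or higher. These alternatives reuse the libraries from which the 10 genes were chosen, so they are no independent check. No paired analysis was possible because there was 1 library per genotype.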
